A study of Mus musculus with 59 samples.

Results

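The genes described here break down amino acids in the liver and turn the nitrogen they release into urea. The list held 40 genes, and each was represented by the probe set that carries its symbol alone and has the highest mean over all arrays. A probe set was found for 36 of the 40, out of 18193 genes with such a probe set, and Acmsd, Sds, Sdsl and Amt were not analysed here. The liver takes up much of the amino acid supply after a meal. Its enzymes strip the nitrogen, which the urea cycle in mitochondria and cytosol converts to urea, and feed the carbon skeletons into energy production or glucose synthesis. Several of these enzymes are classical targets of glucocorticoids and respond to how much protein an animal eats. The list also holds 4 genes of serine and asparagine synthesis, which run in the other direction.

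RNA came from livers of male C57BL/6 mice that were 6 weeks old and had 2 weeks on their diet before treatment, and 59 samples in 12 groups were hybridised to 1 array each. For 5 weeks, mice on LRD-5001, a standard chow made from natural ingredients, received no added arsenite, sodium arsenite at 10 ppb or 100 ppb in drinking water, or 10 ppb in food. Mice on AIN-76A, a diet made from purified ingredients, received the same 4 treatments. In a second experiment mice fed AIN-76A were injected intraperitoneally with dexamethasone (a synthetic glucocorticoid, 1 mg/kg) and sodium arsenite (1 mg/kg) together, with dexamethasone, with arsenite, or with saline alone, and their livers were collected after 8 hours. Each group held 5 arrays, but the AIN-76A group at 100 ppb in water held 4. The labels call them biological replicates without naming animals, and a purified diet and a chow differ in many ingredients at once, which these groups cannot tell apart.

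All levels are log2 values, a difference of 1 is a doubling, and precision is set by the small number of arrays. Hepatocyte markers such as albumin were high on every array (list mean between 12.89 and 13.16 on the 39 arrays of the diet experiment), and Fkbp5, a glucocorticoid target that checks the injections, rose by 2.98 with dexamethasone. Along a component that carried 31.2% of the spread within groups, the lowest-scoring array of each group is called the array that stood apart. The scores of these arrays were at most -0.148, and those of all other arrays at least -0.049. In each group that array also had the lowest upper quartile of log2 values, between 3.73 and 4.03. The sign of the score was set so that low scores go with low upper quartiles. Whether these arrays differ in the tissue or in the measurement was not tested. The acute phase list, 17 measured liver genes that respond to inflammation, averaged between 9.33 and 12.46 across the same 39 arrays, and its values stand beside the results they move with. In whole tissue, fewer cells of a type and less RNA per cell cannot be told apart.

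**Figure D1:**
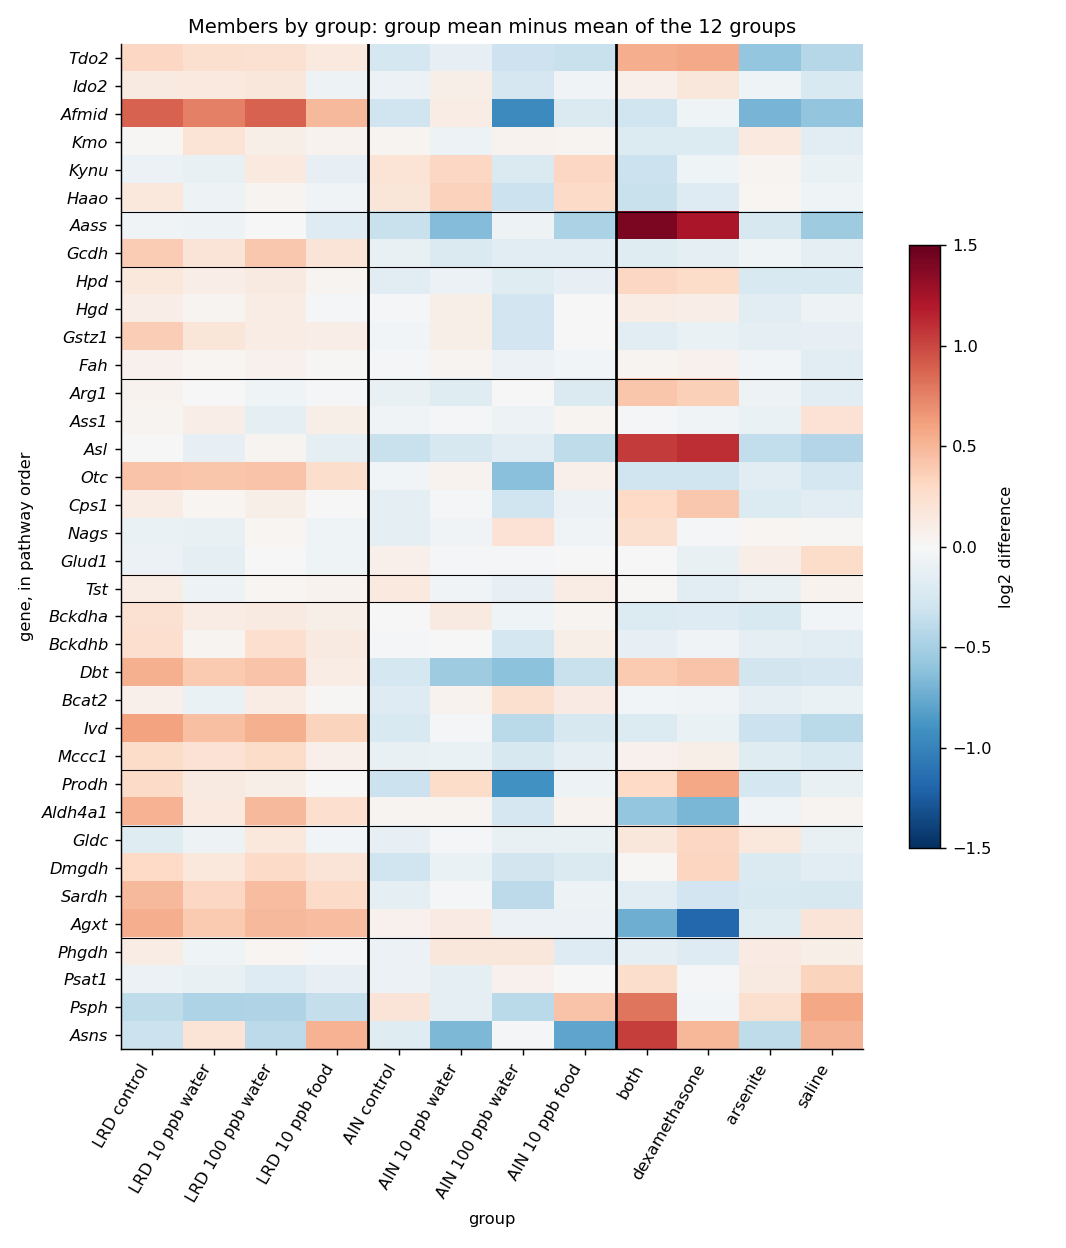
Mean level of each of 36 genes in each of 12 groups, minus the gene's mean over the groups, on a log2 colour scale that ends at -1.5 and 1.5. LRD-5001 groups stand on the left, AIN-76A groups in the middle and injected groups on the right. Ivd and Tdo2 had higher means in the 4 LRD-5001 groups than in any AIN-76A group, and Aass and Asl stood out in the 2 groups given dexamethasone.

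Of the 36 genes, 16 passed the test in at least 1 of 15 comparisons, and the distance between their lowest and highest group means was between 0.51 (Bckdhb) and 2.06 (Aass). For the other 20 that distance was between 0.22 (Fah) and 1.83 (Asns), with a median of 0.45, while a typical SD within a group was 0.26 for them. Asns, asparagine synthetase, varied most within groups, with a mean SD of 1.03. Fah, the last enzyme of tyrosine breakdown, was the steadiest, with group means between 11.09 and 11.31. The probe set of Ass1 averaged 2.41, at the array medians of 2.42 to 2.59, and Psat1 (2.30) and Bcat2 (3.01) were as dim, so that little can be read from these 3 genes. A brighter probe set that the annotation shares between Ass1 and Gm5424 averaged 11.9.

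Averaged over the 4 exposure levels, 14 of the 36 genes were higher in LRD-5001 livers than in AIN-76A livers and 1 was lower, against a background of 4.26% of all 45037 probe sets called (2.67% higher, 1.59% lower; limma, Benjamini-Hochberg adjustment over all probe sets at 0.05). These are bright genes, and among the 1391 genes with a mean level above 8 the background was 25.7%. Of the 24 members above that level, 11 passed, all higher. Members were chosen with earlier results of these data known, so these counts are a description. The median difference over the 36 genes was 0.21, against -0.01 over all probe sets and 0.03 over the bright genes. All 15 called members differed in 1 direction at each of the 4 levels, as did 1745 of the 1919 probe sets called. These levels make up the average on which the calls were made, so this adds no separate support. For Psph the difference at 100 ppb in water was only -0.04. Without the 12 arrays that stood apart 15 members were called, against 6.21% of probe sets, with Prodh (0.44, adjusted p = 0.0306) in place of Asl (0.20, adjusted p = 0.122). Without arrays B and C of the AIN-76A group at 100 ppb in water, an alternative chosen after seeing the data, 16 were called, against 4.02% of probe sets, and Sardh (0.37, adjusted p = 0.0513) was not among them.

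**Figure D2:**
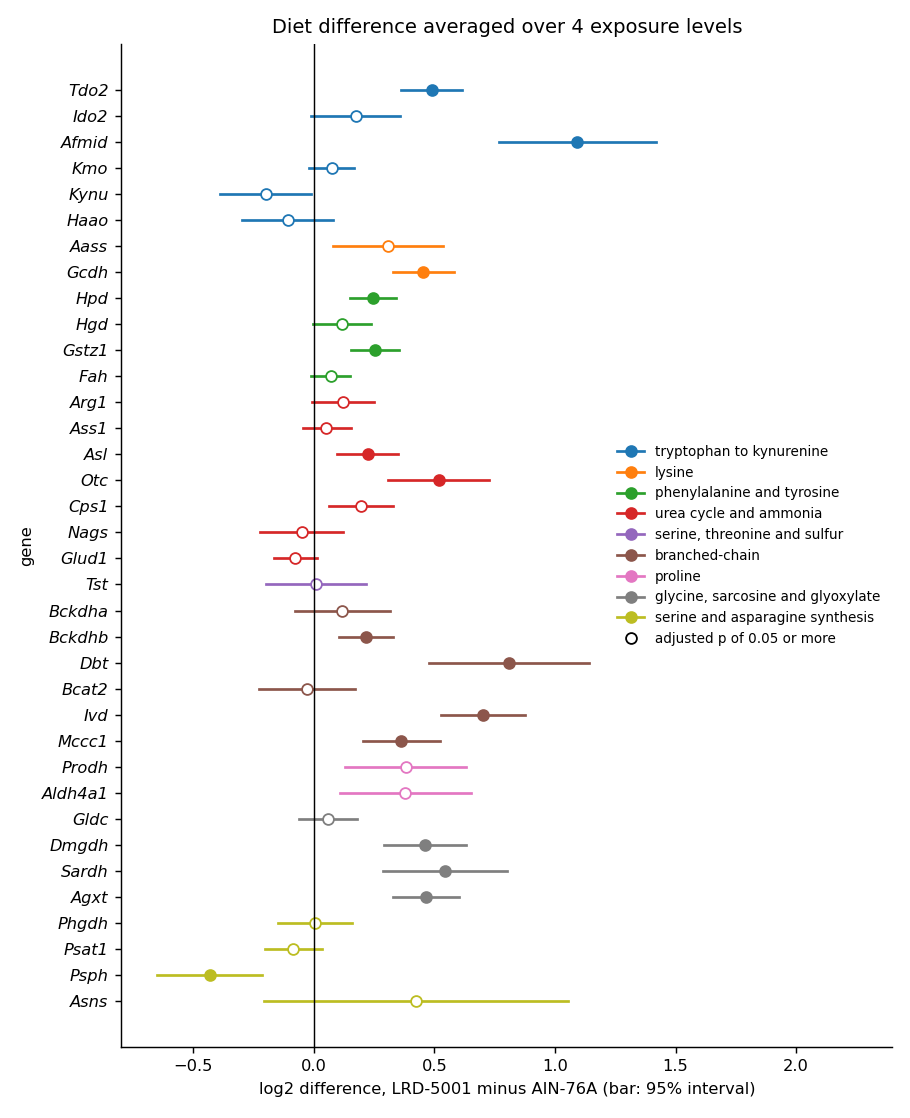
Difference between LRD-5001 and AIN-76A for each of 36 genes, averaged over 4 exposure levels (39 arrays), with 95% intervals and colours by pathway. Filled points passed the test: 14 lie right of 0, and Psph lies left of it.

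Tryptophan breakdown starts with Tdo2, the liver enzyme that opens the tryptophan ring. Tdo2 ran from 12.01 to 12.56 (median 12.45) on the 20 LRD-5001 arrays and from 11.46 to 12.39 (median 11.85) on the 19 AIN-76A arrays, and 15 LRD-5001 arrays lay above every AIN-76A array. The difference was 0.49 (SE 0.06, adjusted p = 9.05e-07). Afmid, which takes the formyl group off the ring product to give kynurenine, had the largest difference of the 36, 1.09 (SE 0.16, adjusted p = 1.34e-05). It ran from 7.36 to 8.74 on LRD-5001 and from 5.43 to 7.78 on AIN-76A, with 18 LRD-5001 arrays above all of the others. The next enzymes did not pass. Kmo differed by 0.07, Kynu by -0.20 and Haao by -0.11, with adjusted p between 0.305 and 0.678. Ido2, a dim relative of the ring-opening enzymes, differed by 0.17 (adjusted p = 0.399). The 2 dimmer probe sets of Tdo2 and the second and the third of Afmid were also higher on LRD-5001 and passed.

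Lysine breakdown runs through Aass and then Gcdh, the glutaryl-CoA dehydrogenase. Gcdh lay between 8.29 and 9.04 on LRD-5001 and between 7.86 and 8.39 on AIN-76A, which put it 0.45 higher (SE 0.06, adjusted p = 2.78e-06), and 17 LRD-5001 arrays were above all AIN-76A arrays. Aass differed by 0.31, with an adjusted p of 0.144. In the tyrosine pathway, Hpd was higher on LRD-5001 by 0.25 (SE 0.05, adjusted p = 0.000626) and Gstz1, which handles maleylacetoacetate, by 0.25 (SE 0.05, adjusted p = 0.000791). Their ranges overlapped, with Hpd between 12.52 and 12.89 on LRD-5001 and between 12.12 and 12.75 on AIN-76A, and Gstz1 between 10.38 and 11.05 on LRD-5001 and between 10.13 and 10.79 on AIN-76A. Hgd and Fah, the other 2 genes of that pathway, had differences of 0.12 and 0.07.

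Branched-chain amino acid breakdown had 4 of 6 genes called. Ivd, the leucine pathway's isovaleryl-CoA dehydrogenase, had the smallest adjusted p of all members, with a difference of 0.70 (SE 0.09, adjusted p = 4.94e-07). It ran from 8.09 to 9.01 on LRD-5001 and from 7.14 to 8.32 on AIN-76A, with 18 of 20 LRD-5001 arrays above every AIN-76A array. Dbt, a core subunit of the branched-chain keto acid dehydrogenase, was higher by 0.81 (SE 0.16, adjusted p = 0.00128) but scattered widely, between 5.91 and 7.61 on LRD-5001 and between 5.11 and 7.44 on AIN-76A. Bckdhb, another subunit, ran from 8.09 to 8.69 (median 8.43) on LRD-5001 and from 7.78 to 8.50 (median 8.23) on AIN-76A and was higher by 0.22 (adjusted p = 0.0149). Mccc1, the next leucine enzyme, ran from 7.31 to 8.03 (median 7.76) on LRD-5001 and from 6.89 to 7.90 (median 7.37) on AIN-76A and was higher by 0.36 (adjusted p = 0.00303). The ranges of both overlapped. Bckdha, the partner subunit of Bckdhb, differed by 0.12 with an adjusted p of 0.663, and the dim Bcat2 by -0.03.

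Glycine, sarcosine and glyoxylate genes had 3 of 4 called. Dmgdh and Sardh, which oxidise dimethylglycine and sarcosine in mitochondria, were higher on LRD-5001 by 0.46 (SE 0.08, adjusted p = 0.000403) and by 0.54 (SE 0.13, adjusted p = 0.00603). Dmgdh ran from 9.82 to 10.36 on LRD-5001 and from 9.0 to 10.24 on AIN-76A, and 12 AIN-76A arrays lay below every LRD-5001 array. Sardh ran from 8.88 to 10.01 (median 9.45) on LRD-5001 and from 7.80 to 9.59 (median 8.90) on AIN-76A. Agxt, which converts glyoxylate to glycine, lay between 9.64 and 10.39 on LRD-5001 and between 9.01 and 9.96 on AIN-76A, which put it 0.47 higher (SE 0.07, adjusted p = 1.01e-05), with 16 LRD-5001 arrays above the rest. Gldc, of the glycine cleavage system, differed by 0.06. The proline genes Prodh (0.38, adjusted p = 0.0765) and Aldh4a1 (0.38, adjusted p = 0.119) did not pass, and neither did Tst, a sulfur transferase (0.01).

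In the urea cycle, 2 of 7 genes passed. Otc, which makes citrulline, was higher on LRD-5001 by 0.52 (SE 0.10, adjusted p = 0.00107) and ran from 10.68 to 11.54 there, against 9.30 to 11.25 on AIN-76A. Asl, which releases arginine, was higher by 0.22 (SE 0.06, adjusted p = 0.028) with ranges of 9.78 to 10.60 on LRD-5001 and 9.55 to 10.39 on AIN-76A. Cps1 (0.20, adjusted p = 0.0909) and Arg1 (0.12, adjusted p = 0.39) had positive differences that did not pass, and Glud1 (-0.08) and Nags (-0.05) had small negative ones. The probe set shared by Ass1 and Gm5424 differed by 0.24 with an adjusted p of 0.214.

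Psph, which completes serine synthesis, was the 1 member lower on LRD-5001, with a difference of -0.43 (SE 0.11, adjusted p = 0.0109). It ran from 3.79 to 4.76 on LRD-5001 and from 3.90 to 5.40 on AIN-76A, and 8 AIN-76A arrays lay above every LRD-5001 array. The other genes of serine and asparagine synthesis, Phgdh (0.01), Psat1 (-0.09) and Asns (0.42, SE 0.31), did not pass.

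**Figure D3:**
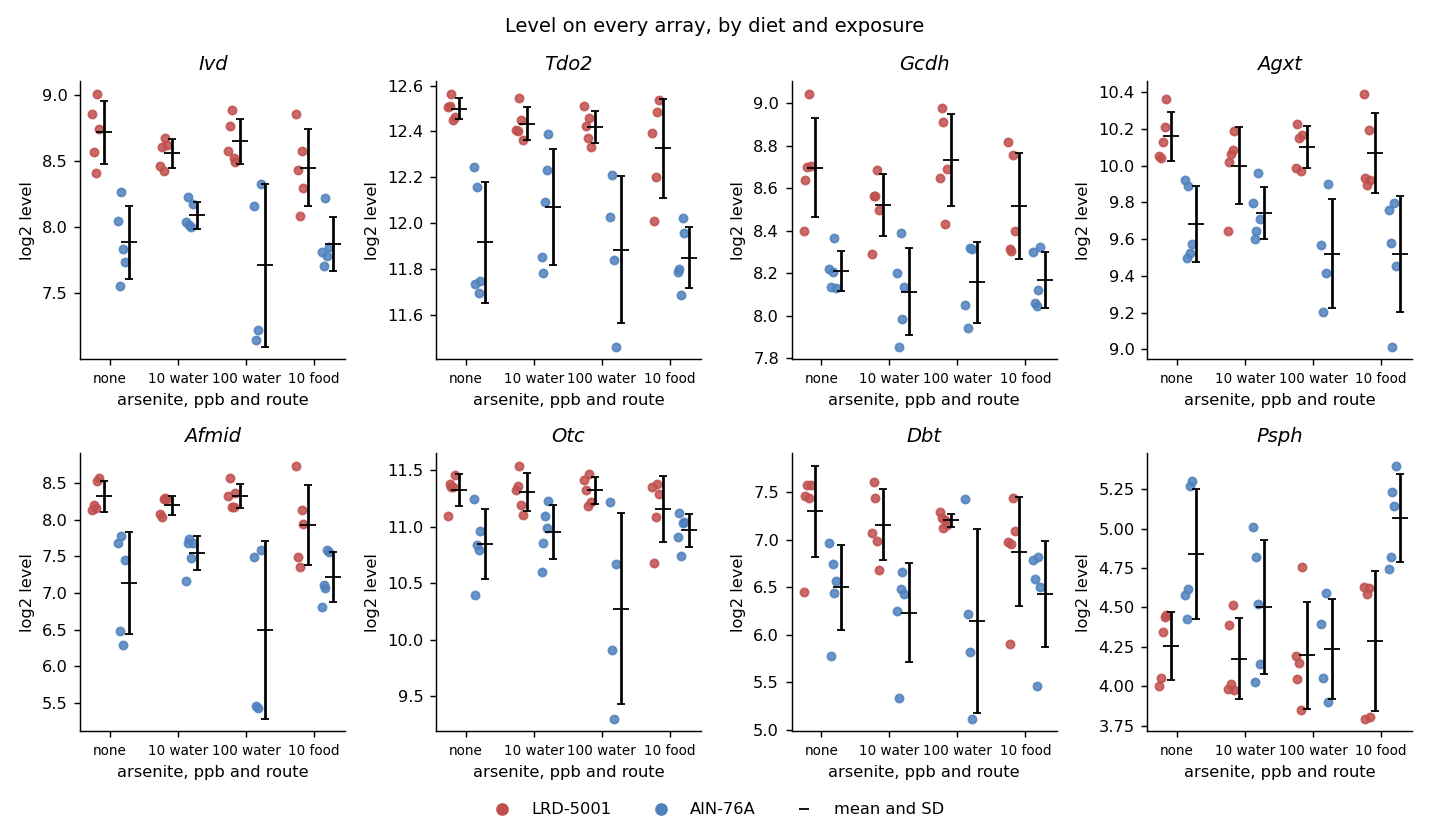
Log2 level of 8 genes on every array of the diet experiment, by exposure, with LRD-5001 points left of AIN-76A points and bars for the mean and SD. In control mice the LRD-5001 points of Ivd, Tdo2, Gcdh, Agxt and Afmid lie above all AIN-76A points, and at 100 ppb in water the AIN-76A points spread widely for Ivd, Afmid and Otc.

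In control mice alone, with 5 arrays a diet, 3 members passed, all higher on LRD-5001, against a background of 0.568% of probe sets (0.4% higher, 0.169% lower) and 4.74% of the bright genes. Ivd was at 8.86, 8.57, 8.41, 9.01 and 8.74 on LRD-5001, against 8.04, 7.55, 8.27, 7.84 and 7.74 on AIN-76A, 0.83 apart (SE 0.17, adjusted p = 0.00963). Tdo2 was at 12.51, 12.51, 12.56, 12.45 and 12.46 on LRD-5001, against 12.25, 11.73, 12.16, 11.70 and 11.75 on AIN-76A, 0.58 apart (SE 0.12, adjusted p = 0.0122). The LRD-5001 values of Tdo2 lay within a narrow band, while on AIN-76A 2 arrays were above 12 and 3 were below 11.8. Gstz1 was at 11.046, 10.799, 10.999, 10.849 and 10.997 on LRD-5001, against 10.656, 10.381, 10.535, 10.540 and 10.520 on AIN-76A, and differed by 0.41 (SE 0.10, adjusted p = 0.0322). Without replicate E of the AIN-76A controls, Ivd alone passed, against 0.384% of probe sets. Without the arrays that stood apart, with 0.604% of probe sets called, Gcdh (0.54, adjusted p = 0.0397) was called and Gstz1 (0.35, adjusted p = 0.123) was not. The groups did not overlap for 12 members, Tdo2, Afmid, Gcdh, Hpd, Gstz1, Asl, Bckdhb, Ivd, Prodh, Dmgdh, Sardh and Agxt, against 1.85% of all probe sets.

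The diet difference was also fitted within each exposure level, a comparison added after seeing the data. At 100 ppb in water 9 members passed, against 2.05% of probe sets, led by Afmid (1.83, SE 0.34, adjusted p = 0.00179), Ivd (0.94, SE 0.18, adjusted p = 0.00303) and Otc (1.05, SE 0.21, adjusted p = 0.00531). All 9 were higher on LRD-5001. On the AIN-76A arrays B and C of this level Afmid was at 5.46 and 5.43, against 7.49 and 7.59 on A and D, and the acute phase mean was 12.46 and 12.42. Without those 2 arrays, an alternative chosen after seeing the data, Bckdhb (0.69, adjusted p = 0.00969) and Tdo2 (0.67, adjusted p = 0.0258) passed, against 1.21% of probe sets. Afmid (0.78, adjusted p = 0.194), Ivd (0.41) and Otc (0.38) did not. Of the acute phase genes 3 of 17, and of the neutrophil markers 4 of 8, were lower on LRD-5001 at 100 ppb, and their part in the result was not tested. Fkbp5, at 8.82 and 8.55 on B and C and at 5.17 and 5.86 on A and D, was not tested for its part either. No member passed at 10 ppb in water, against 0.344% of probe sets, or at 10 ppb in food, against 0.295%. At an unadjusted p under 0.05, 9 members were higher and 2 lower at 10 ppb in water, against 7.46% of probe sets. At 10 ppb in food 7 were higher and 2 lower at that threshold, against 4.93% of probe sets. The test of the difference between levels, the interaction of diet and exposure, called no member at any of the 3 exposures, against a background of 0% of probe sets in each. The smallest p values were those of Kmo (0.31), Gstz1 (-0.31) and Prodh (-0.74) at 10 ppb in water, of Kynu (0.66), Gldc (0.33) and Otc (0.57) at 100 ppb in water, and of Gstz1 (-0.31), Asns (1.46) and Prodh (-0.52) at 10 ppb in food, with adjusted p from 0.756 to 1.

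Inflammation-related genes moved with diet. The acute phase list had 10 of 17 genes lower on LRD-5001 and none higher, and its mean ran from 9.33 to 11.95 (median 9.71) on LRD-5001 arrays and from 9.51 to 12.46 (median 11.02) on AIN-76A arrays. Of the neutrophil markers 3 of 8, and of the Kupffer cell markers 3 of 10, were lower on LRD-5001. Among all probe sets 1.59% were lower. With each array's acute phase mean as a covariate in the fit, chosen after seeing the data, 6 of the 15 members still passed, Tdo2 (0.38), Afmid (0.65), Gcdh (0.45), Bckdhb (0.29), Ivd (0.50) and Agxt (0.41), all higher on LRD-5001. Asns (1.12) passed in addition, and 2.21% of probe sets were called in that fit. The 9 that no longer passed were Hpd, Gstz1, Asl, Otc, Dbt, Mccc1, Dmgdh, Sardh and Psph, and no member passed in the control mice alone, against 0.295% of probe sets. The covariate itself differs between diets, so it also takes up part of the diet difference, and the part of inflammation in the diet result was not tested. Hepatocyte marker means overlapped, 12.89 to 13.09 on LRD-5001 and 12.94 to 13.16 on AIN-76A.

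**Figure D4:**
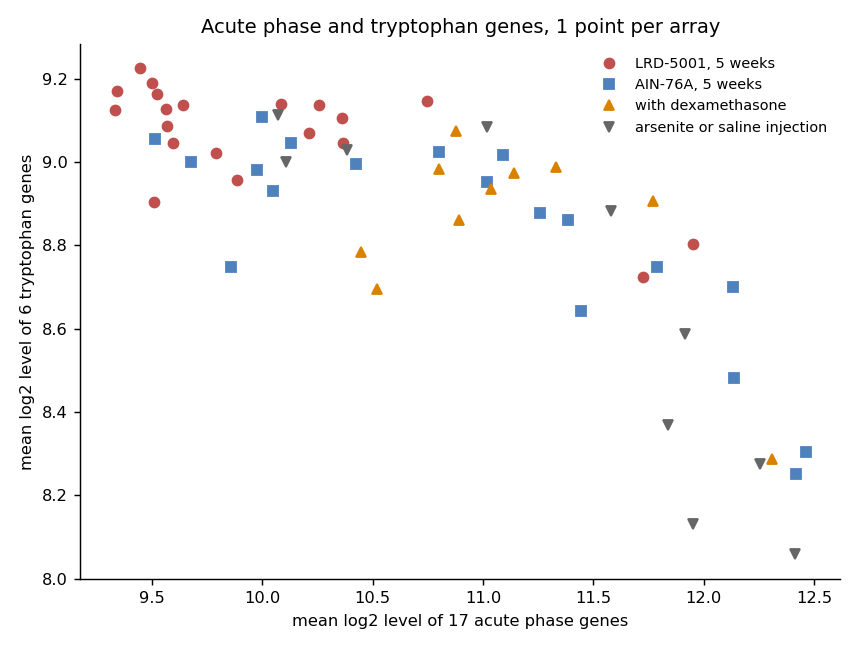
Mean level of 6 tryptophan genes (log2, vertical) against the mean level of 17 acute phase genes (log2, horizontal), 1 point for each of 59 arrays. The lowest tryptophan mean, 8.06, stood beside an acute phase mean of 12.41 on an arsenite-injected array, and the LRD-5001 points lie mostly at the upper left.

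In 7 of the 12 groups the array with the highest acute phase mean also had the lowest value of Afmid, and in the other 5 it did not. Among those 5, the acute phase means of the 2 arrays were close in AIN-76A controls (12.14 and 12.13). They were also close on AIN-76A at 100 ppb in water (12.46 and 12.42). Afmid, the member with the largest diet difference, was counted alone, and other members were not counted in this way. Among AIN-76A controls, arrays C and E had acute phase means of 12.14 and 12.13 with Afmid at 6.48 and 6.29, while arrays B and D had 9.51 and 9.68 with Afmid at 7.68 and 7.79. Among arsenite-injected mice, arrays A and E had acute phase means of 12.26 and 12.41 with Afmid at 5.61 and 4.69, and array B had 10.38 with Afmid at 8.23. Other arrays ran differently. LRD-5001 control array F had the highest acute phase mean of its group, 9.56, with Afmid at 8.57, and dexamethasone array F had the lowest Afmid of its group, 7.04, with an acute phase mean of 10.45, while array E had 11.33 with Afmid at 7.57. These values describe single arrays, and no test was made of them.

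Exposure to arsenite for 5 weeks called no member on either diet. On AIN-76A the background was 0% of probe sets at 10 ppb in water, 0.00888% at 100 ppb in water and 0% at 10 ppb in food, and on LRD-5001 it was 0% for each of the 3 exposures. At 100 ppb in water on AIN-76A, 25 of 36 differences were negative, and at an unadjusted p under 0.05 7 members were lower and 1 higher, against 8.87% of probe sets. The smallest p values belonged to Psph (-0.60, SE 0.22), Otc (-0.57, SE 0.21) and Haao (-0.50, SE 0.19), with adjusted p of 0.37, 0.376 and 0.4. Psph was at 4.40, 4.06, 4.59 and 3.90 on the exposed arrays A to D, against 4.58, 4.43, 4.62, 5.27 and 5.30 in controls, and arrays A, B and D lay below all controls while C did not. Otc was at 11.22, 9.91, 9.30 and 10.67 on the exposed arrays A to D, against 11.25, 10.40, 10.84, 10.79 and 10.96 in controls. Haao, a later enzyme of tryptophan breakdown, was at 10.69, 9.15, 9.79 and 10.54, against 10.56, 10.31, 10.67, 10.50 and 10.64. Prodh, with the fourth smallest p, was at 8.63, 6.56, 6.88 and 8.62, against 8.44, 7.98, 8.40, 8.19 and 8.29.

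In Otc, Haao and Prodh the low exposed arrays were B and C, and arrays A and D lay within the range of the controls or above it. Arrays B and C also had the highest acute phase means of the group, 12.46 and 12.42, against 9.97 and 11.44 on A and D, and neutrophil marker means of 5.33 and 5.15, against 3.05 and 4.29. Without replicate A, Otc (-0.89, adjusted p = 0.0102) and Hgd (-0.45, adjusted p = 0.0266) were called lower, against 1.27% of probe sets. Without B and C together, an alternative chosen after seeing the data, no member was called, against 0.415%. Fkbp5 was at 8.82 and 8.55 on B and C, against 5.17 and 5.86 on A and D. Neither the part of inflammation nor that of the Fkbp5 levels in the values of these members was tested.

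At 10 ppb in water on AIN-76A, Prodh had the smallest p, with 8.89, 9.14, 8.69, 8.66 and 8.87 on exposed arrays, all above the controls, and a difference of 0.59 (SE 0.24, adjusted p = 0.993). Phgdh (0.25) and Psph (-0.34) came next. At 10 ppb in food on AIN-76A the smallest p values were those of Bcat2 (0.32), Agxt (-0.16) and Psph (0.23). On LRD-5001 they were those of Kmo (0.19), Bckdhb (-0.21) and Gstz1 (-0.18) at 10 ppb in water, of Gldc (0.34, the groups not overlapping), Gstz1 (-0.24) and Ass1 (-0.19) at 100 ppb in water, and of Gstz1 (-0.27), Ivd (-0.27) and Gcdh (-0.18) at 10 ppb in food. The 3 values at 10 ppb in food on AIN-76A and the 9 on LRD-5001 had an adjusted p of 1. These comparisons share the control arrays of their diet. Groups did not overlap for 0.508% of all probe sets at 10 ppb in water on AIN-76A. At 100 ppb in water on LRD-5001 that share was 0.695%. The LRD-5001 controls had the highest group mean of Gstz1, 10.94.

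Dexamethasone raised 3 members within 8 hours and lowered 1, against a background of 1.74% of probe sets (0.984% higher, 0.753% lower) and 9.27% of the bright genes. That count, 4 of 36, is not far from the share of the bright genes and is not read as a response of the list. The median difference over the 36 members was 0.04, against -0.02 over all probe sets. Aass, which carries out the opening steps of lysine breakdown, was at 10.70, 10.78, 11.04, 10.74 and 10.68 after dexamethasone, against 9.14, 9.80, 9.31, 8.51 and 8.38 after saline. The difference was 1.76 (SE 0.21, adjusted p = 0.000153), a 3.39-fold rise. Asl was at 11.32, 11.47, 11.55, 11.24 and 11.07 after dexamethasone, against 10.45, 10.30, 9.18, 9.12 and 9.82 after saline, up by 1.55 (SE 0.29, adjusted p = 0.00554). Tdo2, a long-known glucocorticoid target, was at 12.73, 12.65, 12.78, 12.78 and 12.82, against 11.69, 12.39, 11.38, 11.58 and 11.78, up by 0.99 (SE 0.21, adjusted p = 0.0187). The dexamethasone arrays of all 3 genes lay above every saline array and close to each other.

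Agxt moved in the other direction. It was at 8.34, 8.61, 8.42, 8.70 and 8.14 after dexamethasone, against 9.65, 9.89, 9.67, 9.89 and 9.95 after saline, and fell by 1.37 (SE 0.26, adjusted p = 0.00748). The groups also did not overlap for Arg1 (0.52, adjusted p = 0.102) and Hpd (0.51, adjusted p = 0.181), which did not pass, so 6 members were separated, against 3.81% of probe sets. Cps1 (0.57), Dbt (0.67), Glud1 (-0.39) and Aldh4a1 (-0.73) had unadjusted p values below 0.05 and adjusted p between 0.095 and 0.274. Of the other urea cycle genes, Otc (-0.03) and Nags (-0.06) had differences near 0. The dim probe set of Ass1 differed by -0.27, and the one shared by Ass1 and Gm5424 by 0.56 with an adjusted p of 0.4. With dexamethasone all 10 Kupffer cell markers and all 8 neutrophil markers had negative differences and none passed, and of 17 acute phase genes 15 were negative with a median of -0.35. Their part in these results was not tested, and with the acute phase mean as a covariate 4 members were called, against 1.66% of probe sets. Tdo2 lost its call without saline replicate C or E or without dexamethasone replicate F, with adjusted p of up to 0.0573.

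**Figure D5:**
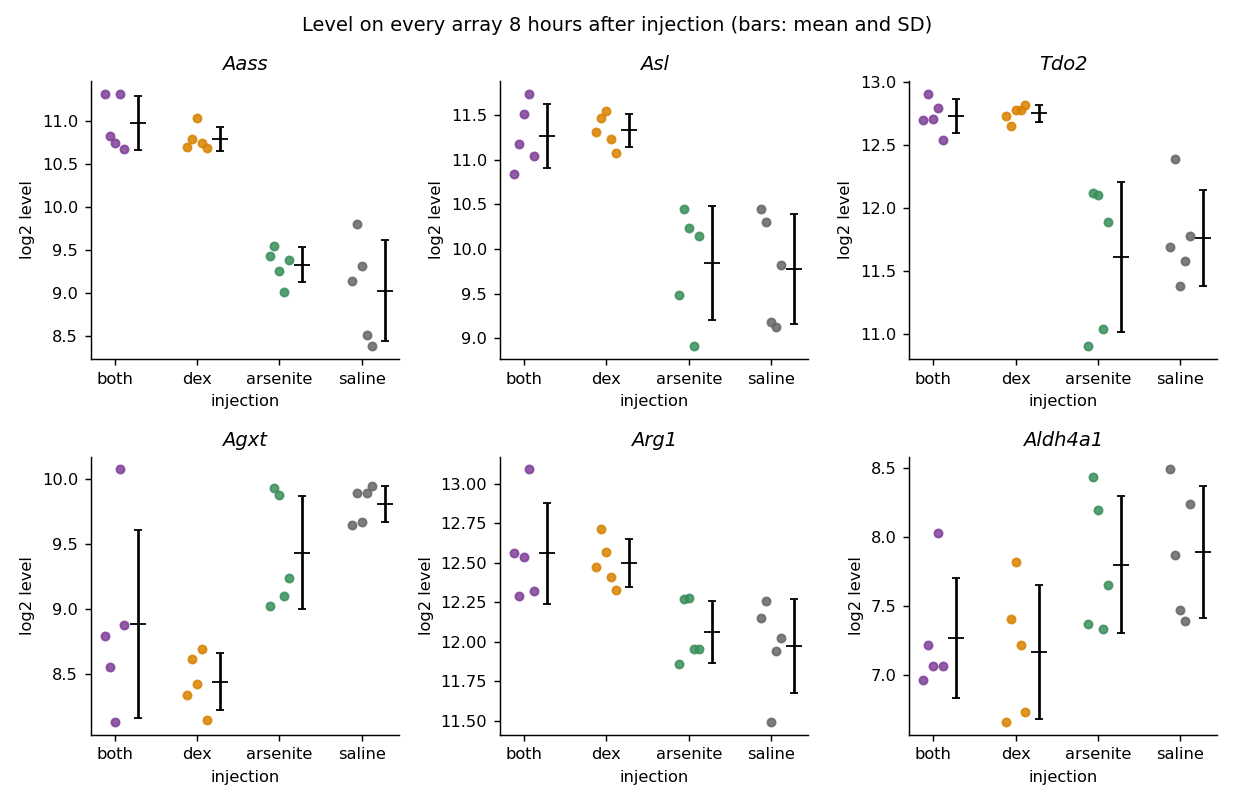
Log2 level of 6 genes on every array 8 hours after injection of dexamethasone with arsenite, dexamethasone, arsenite or saline, with bars for the mean and SD of 5 arrays. Aass, Asl and Tdo2 lie higher in both groups given dexamethasone. Agxt lies lower after dexamethasone alone, and with arsenite added all arrays but E lie below the saline arrays.

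Dexamethasone given with arsenite called the same 3 rises, against 0.926% of probe sets (0.502% higher, 0.424% lower) and 5.97% of the bright genes. A count of 3 of 36 is again not far from the share of the bright genes. Aass was at 11.31, 10.83, 10.75, 11.32 and 10.68 and was 1.95 above saline (SE 0.21, adjusted p = 0.0001). Asl was at 10.85, 11.18, 11.51, 11.74 and 11.04, higher by 1.49 (SE 0.29, adjusted p = 0.0123), and Tdo2 at 12.71, 12.91, 12.71, 12.79 and 12.54, higher by 0.97 (SE 0.21, adjusted p = 0.032). The same saline arrays serve both comparisons. Agxt was at 8.79, 8.55, 8.13, 10.07 and 8.88, with array E as high as saline and the other 4 below it, and its difference of -0.92 (SE 0.26) had an adjusted p of 0.119. Array E was also the array of its group that stood apart. Without the arrays that stood apart, with 0.964% of probe sets called, Aass (1.70, adjusted p = 0.0016) was called higher and Agxt (-1.19, adjusted p = 0.0077) lower, while Asl (1.38, adjusted p = 0.0677) and Tdo2 (0.96, adjusted p = 0.0899) were not called. Arg1, the last enzyme of the urea cycle, differed by 0.59 with an adjusted p of 0.0807.

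Injected arsenite alone called no member, with a background of 0%, and the smallest p values were those of Ass1 (-0.31), Kmo (0.31) and Glud1 (-0.19). The interaction of dexamethasone and arsenite called none either, again with 0% of probe sets, with Ass1 (0.34), Psph (1.17) and Agxt (0.82) at the smallest p and adjusted p of 1. The 95% interval of the Agxt interaction ran from 0.05 to 1.59, with no adjustment for the number of probe sets. In the group given both, Agxt was at 10.07 on array E, which stood apart, and between 8.13 and 8.88 on the others. For Aass after arsenite alone the values were 9.43, 9.55, 9.26, 9.01 and 9.39, within the range of the saline arrays. In the saline group, array E had a neutrophil marker mean of 7.48, against 3.38 to 4.38 on the other saline arrays. With array E left out, Aass, Asl and Agxt were still called with dexamethasone and Tdo2 was not. Tdo2 on array E, at 11.58, lay within the range of the other saline arrays. Its call was also lost without saline array C or dexamethasone array F, so that loss is not particular to array E. The part of the neutrophil markers was not tested.

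Promoters of 29 measured members were found in the RefSeq table of the GRCm38.p6 assembly, and 3 of the 4 genes called with dexamethasone were among them. Each run holds the 250 bases before the start, 5' to 3' on the gene's strand, and is shown to set side by side genes that rose (Tdo2, Aass) and the 1 that fell (Agxt). Capitals mark the glucocorticoid receptor core letters TGTTCT in Agxt and a match to the C/EBP letters TTGCNNAA in Aass, searched on both strands.
Tdo2 (chr3:81975729-81975978, minus strand): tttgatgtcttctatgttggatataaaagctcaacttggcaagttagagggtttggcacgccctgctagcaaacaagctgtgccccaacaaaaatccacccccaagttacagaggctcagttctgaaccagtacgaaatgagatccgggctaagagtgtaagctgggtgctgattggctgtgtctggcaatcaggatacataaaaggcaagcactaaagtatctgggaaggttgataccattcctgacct
Aass (chr6:23132987-23133236, minus strand): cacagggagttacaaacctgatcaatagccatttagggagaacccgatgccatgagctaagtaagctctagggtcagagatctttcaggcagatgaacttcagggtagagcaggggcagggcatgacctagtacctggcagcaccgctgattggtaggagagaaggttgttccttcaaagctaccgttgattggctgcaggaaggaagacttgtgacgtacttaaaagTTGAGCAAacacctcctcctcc
Agxt (chr1:93134990-93135239, plus strand): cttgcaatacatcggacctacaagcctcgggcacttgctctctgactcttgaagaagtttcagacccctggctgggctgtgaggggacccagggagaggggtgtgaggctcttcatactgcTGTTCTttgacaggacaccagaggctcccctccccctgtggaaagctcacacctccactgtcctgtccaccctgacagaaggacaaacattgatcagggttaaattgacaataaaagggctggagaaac
The letters TGTTCT stood in 16.1% of 32851 promoters of that length and in 5 of 33 member promoters, those of Agxt, Asns, Bckdhb, Haao and Psph. TTGCNNAA stood in 9.56% of all promoters and in those of Aass, Gcdh and Hgd, and the amino acid response letters TGATGNAA in 3.45% and in that of Asns. Tdo2 holds none of the 3 in this window. A match is a description of letters and says nothing of binding.

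Further genes of amino acid breakdown also differed with diet. Their list was chosen with earlier results of these data known, so its count adds no separate support. Of 43 measured genes outside the list, 21 were higher on LRD-5001 and 1 was lower, with a median difference of 0.33. The shares called were 4.26% of all probe sets (2.67% higher, 1.59% lower) and 25.7% of the bright genes. Gpt, an alanine aminotransferase, differed by 0.73 (adjusted p = 1.92e-08), Ppm1k, the phosphatase that activates the branched-chain keto acid dehydrogenase, by 1.02 (adjusted p = 9.18e-08), Oat, ornithine aminotransferase, by 0.80 and Aadat by 0.88. The 1 lower gene was Got1 (-0.55). After dexamethasone 2 of these 43 rose and 2 fell, against 1.74% of all probe sets and 9.27% of the bright genes. That count is near the share of the bright genes. Ppm1k fell by 1.70 and Gcsh, of the glycine cleavage system, by 0.63, while Gpt2 rose by 0.89 and Cdo1 by 0.62.

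Of 15 amino acid carriers 5 were higher and 1 lower on LRD-5001, against 2.67% of all probe sets higher and 1.59% lower. Slc7a2, a carrier of cationic amino acids, was at 0.79. Slc25a13, the aspartate and glutamate carrier that supplies the urea cycle, was at 0.44, Slc38a4 at 0.41 and Slc1a4 at -0.83. With dexamethasone, Slc25a15, the mitochondrial ornithine carrier of the urea cycle, rose by 0.71 and Slc38a3, a glutamine carrier, fell by 0.95. Of 11 regulators none was higher and 2 were lower on LRD-5001, Fgf21, a hormone of protein restriction, at -0.66 and Hnf4a, a liver transcription factor, at -0.25. The starvation response genes driven by Atf4 split, 3 of 16 higher and 3 lower, with Trib3 at 0.86, Atf5 at -0.88 and Nupr1 at -0.47. Beside both lists stand the same 2.67% of probe sets higher and 1.59% lower. Among regulators Gcgr, the glucagon receptor, fell by 0.66 with dexamethasone.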

How the data were processed

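Liver RNA of 59 samples was measured with biotin label on 1-colour mouse arrays. The deposited values are log2 expression per probe set, made by the authors with RMA, per the submitters' processing notes, with version and genome build not given in the sources used here. RMA draws dim probe sets together, so differences of dim genes can be understated. The 64 control probe sets among 45101 were dropped, and no other filter or rescaling was applied. Symbols came from the platform annotation, which can be old.

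Group means were fitted with limma 3.58.1 (R 4.3.3), for 39 arrays (8 groups, 5 weeks) and 20 arrays (4 injected groups) apart, with p adjusted by Benjamini-Hochberg over 45037 probe sets at 0.05. Each SE rests on the spread pooled over the groups of its fit, and the procedure was tested on simulated data. Values by array were given for members passing in any of 15 comparisons, the 3 smallest p values where none passed, and up to 4 passing genes of each other list. Members and lists were chosen with earlier results of these data known, and the acute phase list was added later. Same-lettered replicates did not deviate together in every pair (correlations from -0.503 to 0.491), so letters were not taken as pairs. Alternatives were filters, normalization, fit sets, blocks and left-out arrays.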

Additional observations from a re-analysis of the deposited data

Results flagged for a closer look

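Of 192 groups of 4 or 5 values tested for an array far from the others, 12 had one, and chance gives about 1 in 20. On AIN-76A with 10 ppb in food, array D was high for Ivd at 8.221 (the others from 7.704 to 7.847) and low for Dbt at 5.46 (the others from 6.502 to 6.824), and it was the array of its group that stood apart. Adipoq, the 1 measured marker of fat cells, was at 7.24 on that array, against 1.94 to 2.14 on the other 4, and the part of this in Ivd and Dbt was not tested. Dbt was also low on LRD-5001 control array B, at 6.453 against 7.441 to 7.582, again the array that stood apart. On LRD-5001, Aass was low on array F at 10 ppb in water (9.091, the others from 9.511 to 9.668) and Hpd was low on array E at 100 ppb in water (12.606, the others from 12.814 to 12.863). Asl was high on array B of the AIN-76A group at 100 ppb in water, at 10.394 against 9.927 to 9.968, where the acute phase mean was 12.46. On that array Fkbp5 was at 8.82 and Aass at 10.66, against 8.68 to 9.42 for Aass on the other arrays. The part of these in Asl was not tested.

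Among injected mice, dexamethasone array D was high for Aass (11.039, the others from 10.683 to 10.784), array E for Dbt (7.403, the others from 7.093 to 7.173), and array C was low for Bckdhb (8.005, the others from 8.208 to 8.288). Array A of dexamethasone with arsenite was low for Otc (10.021, the others from 10.623 to 10.842) and for Mccc1 (6.891, the others from 7.635 to 7.911), and its acute phase mean of 12.31 was the highest of the group. Mccc1 was high on saline array B, at 7.929 against 7.037 to 7.251, where the acute phase mean of 10.07 was the lowest of the group.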

How the results depend on the processing

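Each of the 25 calls of members was refitted under 20 to 50 alternatives. This gave 945 pairs of a call and an alternative, which are not separate analyses. Of these pairs, 45 lost the call and 0 reversed it. For each averaged diet call, 39 of the 49 or 50 alternatives only left out 1 array, so 45 of 945 is no rate of robustness. The percentages are shares of the probe sets tested that were called in the same fit. The count of 15 for the averaged diet difference (4.26%) became 7 with the acute phase covariate (2.21%) and 16 without arrays B and C of the AIN-76A group at 100 ppb in water (4.02%), where Sardh lost its call, and ranged from 14 to 18 with 1 array left out. For diet at 100 ppb in water the count of 9 (2.05%) became 2 without those 2 arrays (1.21%). For control mice, the count of 3 (0.568%) became 6 with only probe sets whose mean is above 4 (2.89%), 0 with all 59 arrays in 1 fit (0.349%), 5 when the arrays that stood apart formed a block (0.964%), 0 with the acute phase covariate (0.295%), and 1 to 4 with 1 array left out, 1 without AIN-76A control E (0.384%). At 100 ppb in water on AIN-76A the count of 0 (0.00888%) ranged from 0 to 2 with 1 array left out, 2 without array A (1.27%). For dexamethasone the count of 4 (1.74%) became 8 with all 59 arrays in 1 fit (3.04%), where Arg1, Cps1, Glud1 and Hpd joined, and was 3 to 4 with 1 array left out. With dexamethasone and arsenite, 3 (0.926%) became 5 with the filter on the mean (4.9%), 6 with all 59 arrays (2.03%), 5 with that block (1.48%) and 5 with the covariate (1.22%), and was 2 to 3 with 1 array left out. The causes of these moves were not tested. A replicate block, with the letter as the block, gave 15 for the averaged diet difference, 3 in control mice, 4 for dexamethasone and 3 for dexamethasone with arsenite. Gstz1 in control mice lost its call in 11 of 20 alternatives, and Tdo2 with dexamethasone and arsenite in 9 of 21. Dim genes near the array medians limit what can be read of Ass1, Psat1 and Bcat2.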

Other observations

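Liver zone markers outside the list also differed with diet. Of 8 pericentral markers 4 were higher on LRD-5001 and none lower, Cyp1a2 by 1.49 (adjusted p = 4.61e-05), Oat by 0.80, Rhbg, an ammonium carrier, by 0.58 and Cyp2e1 by 0.25. Of 5 periportal markers that are no members 2 were higher, Hal, which opens histidine breakdown, by 0.48 and Cyp2f2 by 0.45. Oat and Hal also belong to the list of further amino acid breakdown genes above, so they are counted in both places. Among all probe sets 2.67% were higher and 1.59% lower, and 25.7% of the bright genes were called. With dexamethasone, Pck1, an enzyme of glucose synthesis and a periportal marker, fell by 1.68 (adjusted p = 0.0295).

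Fkbp5, the gene used to check the injections, averaged 7.10 ± 1.85 (SD, n = 4) in mice on AIN-76A with 100 ppb in water, against 5.40 ± 0.50 (SD, n = 5) in controls. The difference of 1.70 (SE 0.45) had an adjusted p of 0.138 in the limma fit. The exposed arrays A to D were at 5.17, 8.82, 8.55 and 5.86, so that B and C, the arrays with the highest acute phase means of the group, were the high ones.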
